A study of Caenorhabditis elegans with 2 samples.

Results

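Of the 3000 regions with the highest pooled signal for TTX-3-GFP in Caenorhabditis elegans embryos, 387 were nuclear, lay away from small RNA genes and had their summit in a promoter shared by a pair of divergent protein-coding genes. The pooled list held 30000 regions and is labelled as peaks and background, so a region in it need not be a called peak. A summit counted when it lay from 1000 bp upstream to 300 bp downstream of the 5′ ends of protein-coding genes on both strands and more than 100 bp from any tRNA, snoRNA or snRNA gene. The members were therefore selected on their pooled signal, the strength the authors' peak caller gave each region over a control. That signal is given below as a description, without a test. The rest of the 3000 comprised 836 regions at promoters of genes on a single strand, called one-direction promoters here, 1446 away from promoters, 319 at small RNA genes and 12 mitochondrial regions. A further 817 divergent promoter regions ranked between 3001 and 30000 and are called weaker divergent regions.

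Chromatin immunoprecipitation and sequencing was done on whole hermaphrodite late embryos of strain OP68 (unc-119(ed3) III; wgIs68), 4 hours after synchronization by egg bleaching. The strain carries a transgene in which TTX-3 is joined at its C terminus to GFP and FLAG, and an antibody against GFP was used. There was 1 group of 2 biological replicates, with no second condition. Whole embryos were used, so a region cannot be assigned to a cell type, and a transgene need not match the endogenous level of the protein. The files hold no read counts, so the sequencing depth behind each region is unknown.

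TTX-3 belongs to the LIM homeodomain family of transcription factors and is needed for the AIY interneurons of the worm's thermosensory circuit, and homeodomains of its class are known for binding AT-rich cores such as TAATTA. At a divergent promoter the 5′ ends of neighbouring genes face away from each other, and the DNA between them can serve both. Many housekeeping genes of compact genomes are arranged in this way. In C. elegans many mature transcripts start with a spliced leader added in trans, so the annotated 5′ end of a gene can lie downstream of its real start site.

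The sequences at the strongest members carry much of what follows. They are given on the + strand of ce11, the WBcel235 assembly, read from the RefSeq FASTA: the whole stretch between the 5′ ends for uncp-18 and ears-2, and the summit with 50 bases to each side for the others. None overlaps an annotated UTR. Capitals mark, on either strand, the homeodomain core TAATTA, the motif GCGCAC, the element CTGCGTCT and the fixed letters of the spaced patterns GCGNNNTTGC and GGCNNNNTTGC, in which N is any base. Both spaced patterns were picked after sequences of these regions had been seen, and GCGCAC was known from earlier results. The letters GGCG followed by 3 bases and TTGC fit both.
uncp-18/ears-2, chrIV:390469-390559, + strand: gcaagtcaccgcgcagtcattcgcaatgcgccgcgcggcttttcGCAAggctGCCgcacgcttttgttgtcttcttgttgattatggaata
atx-2/ecps-1, chrIII:10461274-10461374, + strand: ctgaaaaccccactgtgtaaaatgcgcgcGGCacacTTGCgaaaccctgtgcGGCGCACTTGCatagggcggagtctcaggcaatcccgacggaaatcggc
idhg-1/mlcd-1, chrIII:4568687-4568787, + strand: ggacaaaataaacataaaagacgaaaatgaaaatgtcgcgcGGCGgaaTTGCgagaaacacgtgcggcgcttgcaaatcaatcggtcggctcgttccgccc
hach-1/nmad-1, chrIII:5555073-5555173, + strand: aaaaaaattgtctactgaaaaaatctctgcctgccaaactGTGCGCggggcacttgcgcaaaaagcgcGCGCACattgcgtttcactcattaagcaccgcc
snr-1/snx-13, chrIV:17087558-17087658, + strand: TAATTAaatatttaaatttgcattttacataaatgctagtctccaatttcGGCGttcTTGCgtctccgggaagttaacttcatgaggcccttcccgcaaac
C16C10.4/rnf-121, chrIII:4171115-4171215, + strand: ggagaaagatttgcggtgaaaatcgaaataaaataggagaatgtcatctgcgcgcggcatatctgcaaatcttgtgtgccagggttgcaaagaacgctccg
sre-1/B0495.9, chrII:7708730-7708830, + strand: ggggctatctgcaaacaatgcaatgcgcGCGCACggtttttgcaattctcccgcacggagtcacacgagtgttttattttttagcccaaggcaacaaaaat

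Further members are shown as examples of GGCNNNNTTGC within 50 bp of the summit. The spacing is fixed by the definition of the pattern. Of its 38 copies in all members, 21 (55.3%) had the letters TGC just before it. In krr-1/gei-6 and math-33/erfa-3 it lies on the other strand, so it reads GCAANNNNGCC.
mtss-1/mig-22, chrIII:8768057-8768157, + strand: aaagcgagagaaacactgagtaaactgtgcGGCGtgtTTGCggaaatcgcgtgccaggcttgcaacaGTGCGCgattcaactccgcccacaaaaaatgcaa
krr-1/gei-6, chrV:7231015-7231115, + strand: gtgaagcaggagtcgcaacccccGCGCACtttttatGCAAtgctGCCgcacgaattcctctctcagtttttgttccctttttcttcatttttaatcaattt
C16A11.2/fbxc-44, chrII:4238061-4238161, + strand: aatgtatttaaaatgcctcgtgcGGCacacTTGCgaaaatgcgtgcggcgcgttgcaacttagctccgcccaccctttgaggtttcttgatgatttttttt
math-33/erfa-3, chrV:11113312-11113412, + strand: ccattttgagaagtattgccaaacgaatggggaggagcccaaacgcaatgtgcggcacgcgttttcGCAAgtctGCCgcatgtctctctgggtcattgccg
hsp-60/Y22D7AL.10, chrIII:1619080-1619180, + strand: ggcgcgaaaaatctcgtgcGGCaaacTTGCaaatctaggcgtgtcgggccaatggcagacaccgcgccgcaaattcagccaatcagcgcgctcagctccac

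Members that hold the homeodomain core or the 8-base element CTGCGTCT are shown for comparison. The mog-5/fbxl-3 window holds TAATTA at its edge and GGCNNNNTTGC nearer the summit.
mog-5/fbxl-3, chrII:5399343-5399443, + strand: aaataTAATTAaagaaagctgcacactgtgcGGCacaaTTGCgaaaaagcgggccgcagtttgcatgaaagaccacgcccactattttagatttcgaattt
spat-1/F57C2.5, chrII:14528500-14528600, + strand: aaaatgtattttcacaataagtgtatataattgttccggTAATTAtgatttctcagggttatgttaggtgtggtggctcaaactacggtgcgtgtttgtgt
set-16/drr-2, chrIII:13643666-13643766, + strand: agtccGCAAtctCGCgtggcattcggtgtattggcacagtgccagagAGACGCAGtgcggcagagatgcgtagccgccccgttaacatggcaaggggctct

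The strongest member lay in the 91 bases between uncp-18 and ears-2, which encodes a mitochondrial glutamyl-tRNA synthetase. Its signal was 494 in the pooled list, 262 in the replicate 1 list and 228 in the replicate 2 list. Its summit was 58 bp upstream of uncp-18 and 34 bp upstream of ears-2. At atx-2, which encodes the RNA-binding protein ataxin-2, and ecps-1 the pooled signal was 427, with 233 in replicate 1 and 196 in replicate 2. Between idhg-1, a subunit of isocitrate dehydrogenase, and mlcd-1, malonyl-CoA decarboxylase, it was 389, with 207 and 179. All 3 stood high in both replicate lists, between ranks 9 and 24. Between hach-1, an enzyme of valine breakdown, and nmad-1, a candidate adenine demethylase, the pooled signal was 333, with 178 in replicate 1 and 149 in replicate 2. At snr-1, an Sm protein of the spliceosome, and snx-13, a sorting nexin, it was 329, with 181 and 156. Each of these 5 regions was a little stronger in replicate 1, by 0.20 to 0.26 on the log2 scale.

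The next members were Y51F10.11/spe-48 with a pooled signal of 307 and ndua-2/dnj-29, a subunit of respiratory complex I facing a DnaJ-domain protein, with 284. C16C10.4/rnf-121 had 272 and sre-1/B0495.9 had 257. At the latter the summit was 70 bp upstream of B0495.9 and 924 bp upstream of the chemoreceptor gene sre-1. The other 11 of the 20 strongest members had signals from 184 to 241. They were tasp-1/K01G5.10, mtss-1/mig-22, K11H12.8/rpl-15, krr-1/gei-6, sas-5/piit-1, tre-1/dad-1, C16A11.2/fbxc-44, R10D12.13/algn-13, math-33/erfa-3, chaf-2/Y71G12B.30 and C06A5.3/simr-1. Among them are genes of ribosome assembly (krr-1), centriole duplication (sas-5), chromatin assembly (chaf-2), translation termination (erfa-3) and protein N-glycosylation (dad-1, algn-13). The roles of the other genes in these pairs are not described. At tre-1/dad-1 the summit was 56 bp from tre-1 and 383 bp from dad-1. Replicate 2 was the stronger at C16A11.2/fbxc-44, with 115 against 79.6, and at C06A5.3/simr-1, with 97.1 against 88.8, and replicate 1 at the remaining 18.

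Over all 387 members the pooled signal ran from 43.6 to 494, with a median of 64.2. The median at one-direction promoters of the same 3000 was 54.2. The weakest members were fbxb-51/fbxb-52 with 43.62 and gsr-1/madf-8 with 43.60, and the first divergent regions outside the 3000 were Y37E11AL.3/taf-6.2 with 43.37 and egli-1/rab-39 with 43.30. These 4 values differ by less than 1%, so the border of the set falls within a continuum. Regions at full width spanned 450 bp. Only 17 members were narrower, down to 118 bp, and all 17 ranked at or above 289 in the pooled list.

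Divergent promoters made up a larger share of the strong regions than of the weak ones. They were 14% of ranks 1 to 100 (95% exact binomial interval 7.87 to 22.4%), 22% of the next 200 ranks and 24% of ranks 301 to 700 (19.9 to 28.5%). They were 13.4% of ranks 701 to 1500, 8.40% of ranks 1501 to 3000 and 2.57% of ranks 12001 to 30000 (2.35 to 2.81%). The lower share in the first class stood beside small RNA genes, which took 63% of ranks 1 to 100. Of promoter regions alone, divergent ones were 46.0% of ranks 1 to 700 (40.5 to 51.5%), 26.2% of ranks 701 to 3000 and 12.5% of the weaker ranks. In the separate replicate lists the share among the 3000 strongest was 31.5% in replicate 1 and 30.5% in replicate 2, and among the rest 12.2% and 12.3%. Intervals here and below reflect the counting of regions alone, not variation among embryo collections, and neighbouring regions are not independent.

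**Figure D1:**
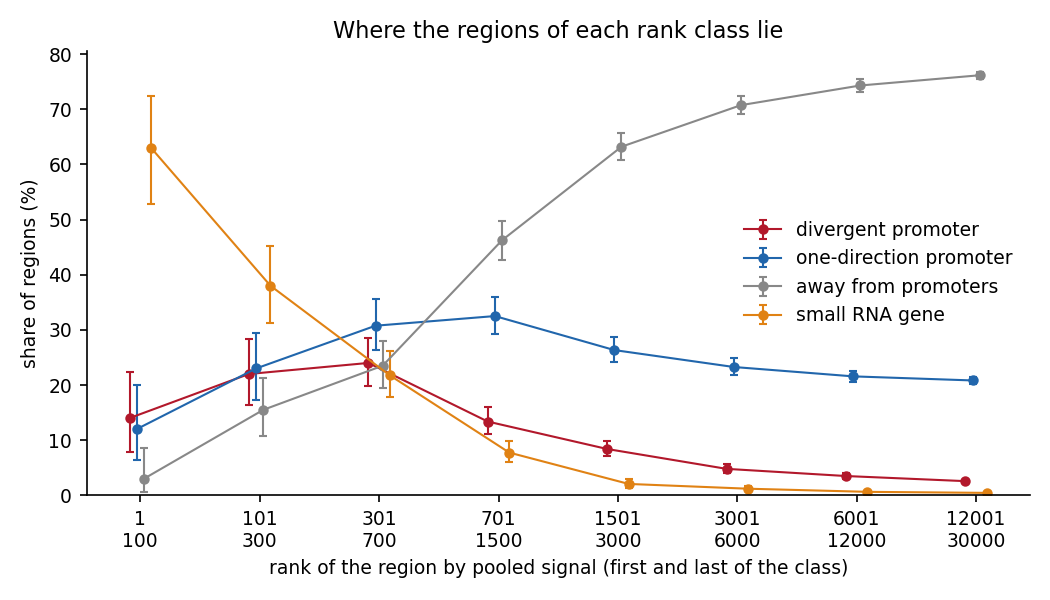
Share of pooled regions in each class of location (y axis, %) by rank of the pooled signal (x axis, first and last rank of each class); points are shares and bars 95% exact binomial intervals. Divergent promoters reach 24% in ranks 301 to 700 and fall to 2.57% in ranks 12001 to 30000, while small RNA genes hold 63% of the first 100.

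The authors' optimal list, the 700 regions that passed a reproducibility filter (IDR), consisted of the 700 strongest pooled regions, so membership in it is again a measure of pooled signal. It held 154 of the 387 members, or 39.8%, where 23.3% of all 3000 strong regions were in it. The share was 21.7% at one-direction promoters and 8.85% away from promoters.

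A summit within 100 bp was found in both replicate lists for 315 of the 387 members, or 81.4% (77.2 to 85.1%), where the share over all nuclear strong regions was 76.8%. Among the 154 members of the optimal list it was 92.9%, and among the other 233 it was 73.8%. At one-direction promoters the corresponding shares were 93.4% and 74.4%, so at the same standing the promoter classes differed by less than their intervals. Of the remaining members, 30 had a summit in replicate 1 only, 38 in replicate 2 only and 4 in neither. Within the 3000 strongest of each replicate list, 188 members (48.6%) had a summit in both. The share was 30.4% at one-direction promoters and 15.6% away from promoters. In the optimal list it was 89.0% at members and 89.0% at one-direction promoters.

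Signals of the 315 shared members differed between the replicates by a median of 0.12 on the log2 scale, replicate 1 over replicate 2, with an interquartile range from −0.26 to 0.51. Replicate 1 was higher at 191 members and replicate 2 at 124, and 36 differed by more than 2-fold. At strong one-direction promoters 97 of 656 shared regions differed by more than 2-fold, and away from promoters 164 of 1029. Of the members in the optimal list, 102 were higher in replicate 1 and 41 in replicate 2. In the rest the split was 89 to 83. Strong one-direction promoters were split 379 to 277, strong regions away from promoters 484 to 545 and weaker divergent regions 82 to 92. The lists have no stated common scale, and the source of the shift at members was not tested. Across regions, the rank correlation between the replicates was 0.63 over the 143 shared members of the optimal list and −0.17 over the other 172. The pooled signal that chose the members draws on both replicates and bounds the other 172 from both sides, so these values only describe the chosen regions. The largest ratios towards replicate 1 were at algn-5/Y45G5AM.9, with 80.1 against 17.6, nipi-3/rab-14, with 39.6 against 12.4, and C26D10.3/ran-3, with 86.4 against 28.1. Towards replicate 2 they were at C26D10.4/hel-1, with 12.7 against 48.5, cct-2/B0457.2, with 12.5 against 35.6, and gst-43/copa-1, with 12.0 against 33.6. These 6 were picked for their ratio and have no test.

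**Figure D2:**
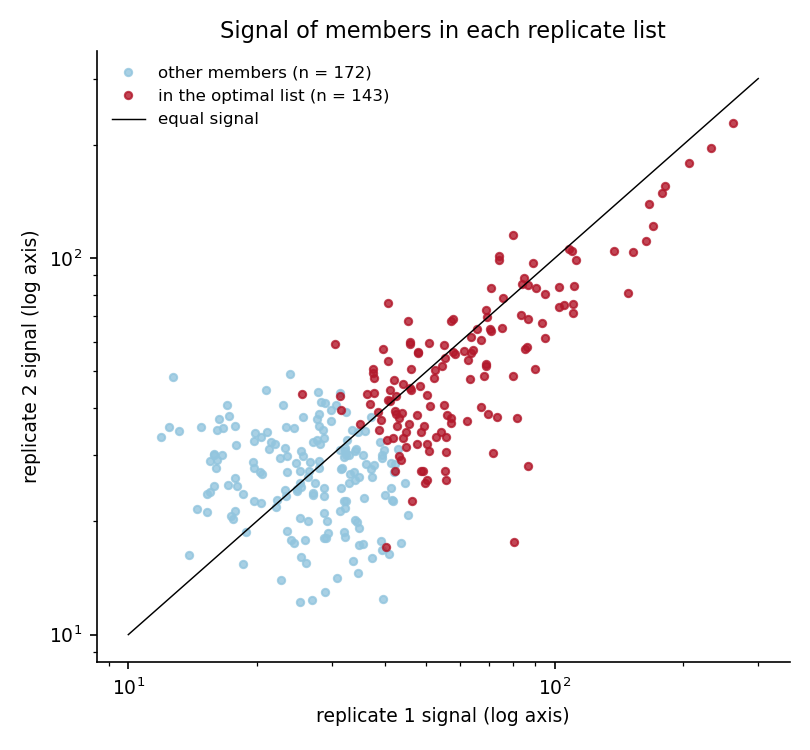
Signal of the members with a summit in both lists, replicate 1 on the x axis and replicate 2 on the y axis (log axes, the authors' signal units); points are regions and the line marks equal signal. The 143 members of the optimal list extend along the line to 262 and 228, and the 172 others cluster at low values with wider relative scatter.

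The position of the summits within the shared promoters was set in part by the rule, which placed every summit near both 5′ ends. Within that window, 333 of 387 summits (86%, 82.2 to 89.3%) lay upstream of both genes, against 68.3% of the weaker divergent regions (65.0 to 71.5%), which met the same window. A summit lay within 100 bp of the midpoint between the 5′ ends in 46.3% of members and 29.4% of weaker divergent regions. It was intergenic in 81.4% and 63.0%. The median distance between the 5′ ends was 498 bp at members and 590 bp at weaker divergent regions. Summits of members lay a median of 139 bp from the nearer 5′ end. At chaf-2/Y71G12B.30 and R10D12.13/algn-13 the summit was within 2 bp of the midpoint, 248 and 251 bp from the 5′ ends in the first and 221 and 219 bp in the second. At atx-2/ecps-1 it lay near atx-2, at 65 bp, and 773 bp from ecps-1.

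**Figure D3:**
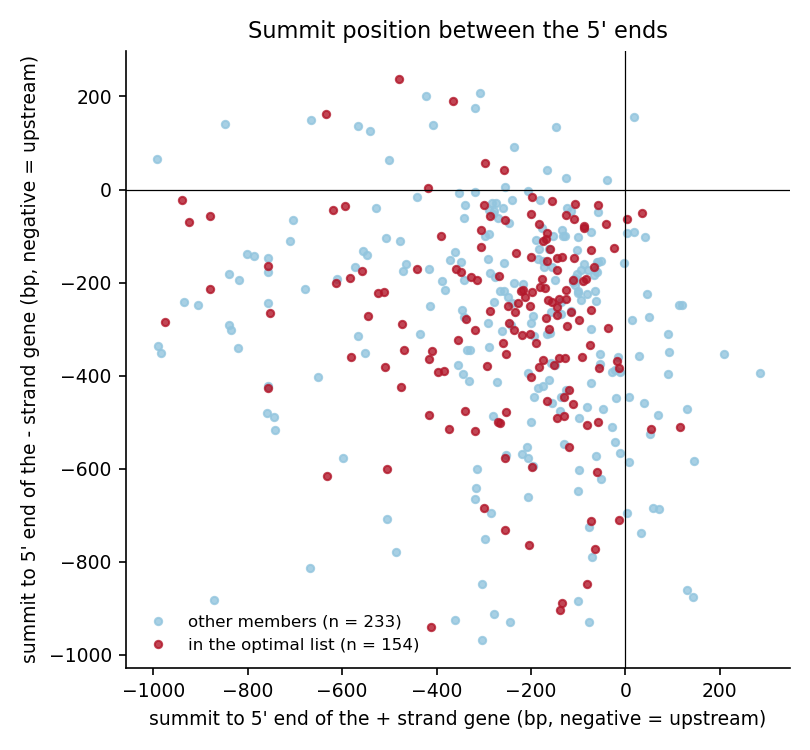
Distance from each member's summit to the 5′ end of the + strand gene (x axis, bp) and of the − strand gene (y axis, bp), with negative values upstream; each point is a region, coloured by membership in the optimal list. Most points, 333 of 387, lie in the lower left, upstream of both genes.

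Seen from the gene pairs, 3088 pairs of protein-coding genes had 5′ ends placed so that a summit could meet the rule, and 394 of them (12.8%) had a member. The share was 14.6% for 5′ ends 0 to 250 bp apart (11.2 to 18.6%), 25% for 251 to 500 bp (21.5 to 28.9%), 17.8% for 501 to 1000 bp (15.3 to 20.6%) and 6.71% for 1001 to 1500 bp. The stretch in which a summit can meet the rule also changes with distance, with medians of 774.5, 970, 1186 and 761 bp in these classes. Pairs 251 to 500 bp apart thus had the highest share while their stretch was shorter than that of pairs 501 to 1000 bp apart. At 345 sets of nearest genes there was 1 member and at 21 there were 2.

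By chromosome the share of pairs with a member was 19.3% on III (15.8 to 23.1%), 17.3% on I, 12.4% on II, 10.8% on IV, 8.72% on V and 7.22% on X (4.00 to 11.8%). Chromosome X held 15 members (3.88%), whereas it held 15% of strong one-direction promoters. Of the protein-coding genes of X, 13.8% had a divergent partner, against 30.8% on the autosomes. Genes with such a partner had a strong region in their window more often than genes without one, at 15.1% of 5681 against 5.01% of 14292. The order was the same on each of the 6 chromosomes, with 9.57% against 4.80% on X and 21.6% against 6.96% on III. A window of a gene with a partner is not longer, but the count includes summits that lie nearer to the partner.

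The members sat at 760 genes, 13.4% of the 5681 protein-coding genes with a divergent partner. Genes were grouped in 19 lists by symbol, most by its start and a few, such as the homeobox genes and the genes of the AIY, AIA and NSM neurons, wholly or partly by named genes. Counts and orders below hold for those symbols. They miss genes of the same function with other names and can include genes of other functions. Of these lists, cytosolic ribosomal proteins and chaperones stood farthest above that share. This need not be particular to divergent promoters. A strong region of either promoter class lay at 36 of all 81 cytosolic ribosomal protein genes (44.4%) and 19 of 59 chaperonin and heat shock genes (32.2%). It lay at 13 of 1171 chemoreceptor symbols (1.11%) and at 1571 of all 19973 protein-coding genes. These counts include the members. Of 53 cytosolic ribosomal protein genes with a partner, 25 had a member (47.2%, 33.3 to 61.4%), with a median pooled signal of 74.2, where the median over all 760 genes was 65.7. The strongest were rpl-15 with 216, rpl-20 with 179 and rps-20 with 113. At rpl-15 the replicates gave 109 and 105 and at rpl-20 they gave 90.2 and 83.1. Chaperonin and heat shock genes had a member in 16 of 34 cases (47.1%, 29.8 to 64.9%), led by dnj-29 with 284, the mitochondrial chaperonin hsp-60 with 177 and the cytosolic chaperonin subunit cct-8 with 134. Because neighbours share a summit, a list gene can be counted for a region that lies closer to its partner. The hsp-60 summit was 612 bp from hsp-60 and 201 bp from Y22D7AL.10. At rpl-20, rps-20 and cct-8 the summit was also nearer to the partner, and at rpl-15 and dnj-29 it was nearer to the named gene.

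Symbols of the splicing list had a member in 13 of 32 cases (40.6%), vesicle transport genes in 18 of 45 (40.0%, 25.7 to 55.7%) and mitochondrial ribosomal protein genes in 11 of 30 (36.7%). The last were led by mrpl-45 with 109, mrpl-39 with 85.1 and mrps-34 with 84.1. Within the splicing list snr-1 was followed by sftd-3 with 78.2, which is not a splicing gene and entered by its symbol. The next was the SR protein gene rsp-1 with 71.7, whose region had no summit within 100 bp in the replicate 1 list. Members at splicing genes with other symbols included rsr-1 with 172 and mog-5 with 140. Vesicle transport was led by snx-13, by vps-51, a tethering complex subunit, with 172, and by the late endosomal GTPase gene rab-7 with 170. Nuclear pore and transport genes had a member in 8 of 25 cases (32.0%), led by importin ima-1 with 156, npp-6 with 155 and ran-3 with 115. Translation factors and tRNA synthetases had one in 10 of 34 (29.4%), led by ears-2, the elongation factor gene eef-1A.1 with 121 and eif-3.E with 112. The release factor gene erfa-3, with 186, is not in that list by its symbol. RNA polymerase and mediator genes had one in 6 of 20 (30%), led by mdt-6 with 140, mdt-9 with 126 and mdt-19 with 109. The summit was 816 bp from sftd-3, 826 bp from rab-7 and 909 bp from mdt-6, nearer to other genes. It also lay nearer to another gene at snr-1, vps-51, mrpl-45, ima-1, npp-6, ran-3, eef-1A.1, mdt-9 and mdt-19. Among the other genes that led these lists, the named gene was the nearest at rsp-1, snx-13, mrpl-39, mrps-34, ears-2 and eif-3.E. The lower bound of the interval was above 13.4% in each of these lists except RNA polymerase and mediator.

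Other lists lay nearer the background. The respiratory chain list had a member in 5 of 20 cases (25%), led by atp-2 with 89.7, cox-14 with 62.1 and atp-3 with 51.5. It leaves out complex I genes with other symbols that also had members, such as ndua-2 with 284, ndub-3 with 78.2 and ndub-5 with 75.2. A member was found for ubiquitin genes in 3 of 14, namely ubc-12, uba-2 and cul-2. Symbols of the cell cycle list had one in 4 of 26 cases (15.4%), led by cdk-9, which entered by its symbol, cdc-6 and cdc-14. Proteasome genes had one in 3 of 24 (12.5%), at rpn-7 with 154, rpn-3 with 113 and rpt-2 with 61.6. Histone genes, of which 66 of 72 had a divergent partner, had one in 6 of the 66 (9.09%), at the pairs his-68/his-67, his-62/his-61 and his-32/his-31. Reads from histone copies of near-identical sequence may be placed uncertainly.

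The chemoreceptor list stood lowest among those with a member. Chemoreceptor symbols had a member in 7 of 268 cases (2.61%), but the list also took symbols of genes that are not receptors, such as the RNA processing gene srrt-1. Without genes of that kind the count was 5 of 262 (1.91%, 0.622 to 4.40%), with sre-1 at 257 and sri-5 at 172 the strongest. Nuclear receptors had a member in 2 of 46 cases (4.35%), at nhr-47 and nhr-142, and collagens in 3 of 39 (7.69%), at col-71, col-38 and col-2. Neuropeptide and insulin genes had a member in 1 of 17 cases, at nlp-4 with 46.6, and the intervals of these 3 lists include 13.4%. Of 23 genes known for the AIY, AIA or NSM neurons only 4 had a divergent partner, and none of the 4 had a member, which at this number allows a share of up to 60.2%. Of 11 homeobox genes with a partner 2 had a member, ceh-38 with 64.7 and ceh-100 with 57.8. The lists also differed in how many genes had a divergent partner at all, which was 65.4% of cytosolic ribosomal protein genes, 22.9% of chemoreceptor symbols and 28.4% of all protein-coding genes.

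**Figure D4:**
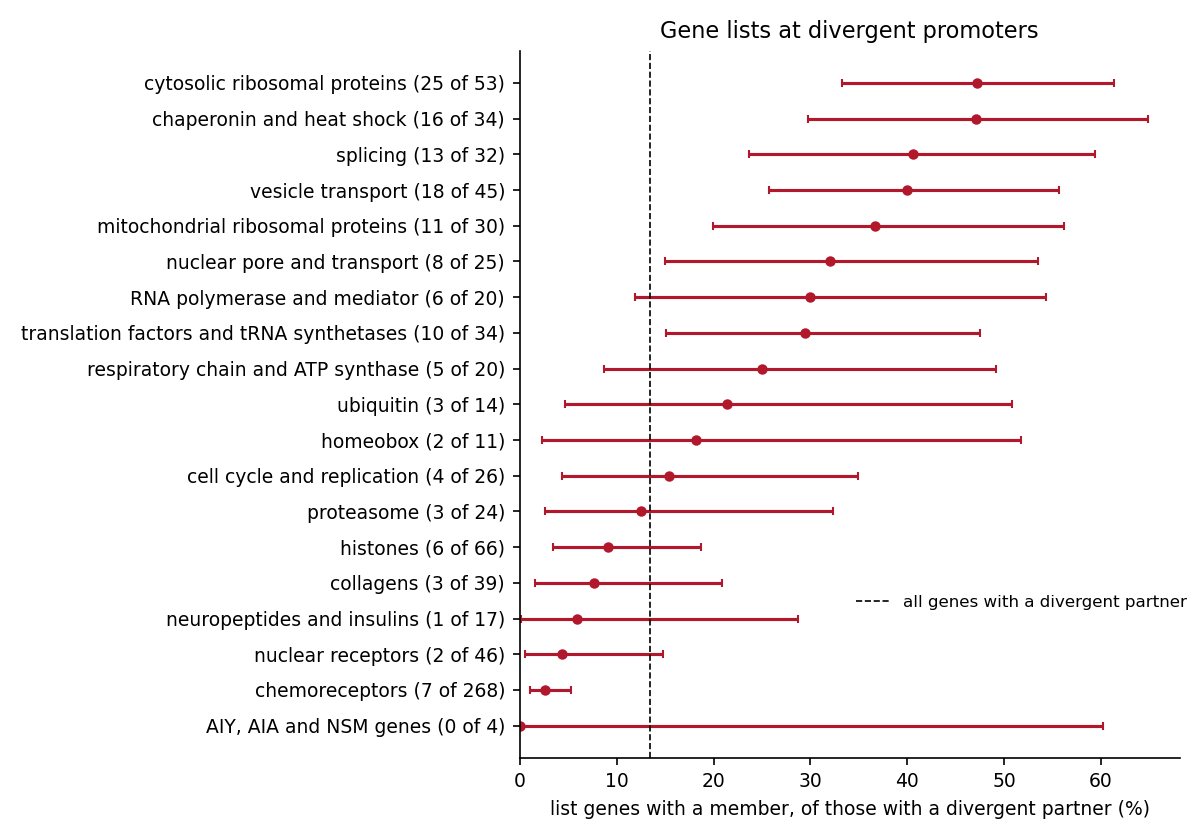
Share of each list's genes with a member among those with a divergent partner (x axis, %), with counts beside the list names; points are shares, bars 95% exact binomial intervals, and the dashed line marks 13.4% for all genes with a partner. Cytosolic ribosomal proteins stand at 47.2% and chemoreceptor symbols at 2.61%.

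The share of all divergent pairs with a listed gene was not counted, so the counts here describe the members alone. In 133 members (34.4%) at least 1 gene belonged to a list, and in 15 the nearest genes on both strands did. Besides snr-1/snx-13 these included rpn-3/hsp-110, a proteasome subunit facing a heat shock protein, with 113, and his-68/his-67 with 90.5. Others were rpl-5/col-38, a ribosomal protein facing a collagen, with 85.8, and nhr-47/dnj-19, a nuclear receptor facing a DnaJ-domain protein, with 84.5. Weaker ones included mrpl-49/rpl-28, a mitochondrial facing a cytosolic ribosomal protein, with 74.2, vps-20/eif-4A3 with 72.6 and rsp-1/rsp-2 with 71.7. At rpl-7/rab-11.1 the pooled signal was 58.4, with 43.5 in replicate 1 and 17.5 in replicate 2.

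The summit windows of members, 50 bp to each side, had a median GC content of 41.6% (40.6 to 43.6%). One-direction promoters had the same median, weaker divergent regions had 32.7%, and the midpoints of 2456 divergent pairs without a strong region had 33.7%. Members in the optimal list had a median of 46.5% and the others 37.6%, and the same 2 values were found at one-direction promoters. The GC content of members peaked at the summit. It was 42.5% in the 25 bases just to the right of the summit and 32.2% in the bins centred 137.5 bp to the left and 112.5 bp to the right. Weaker divergent regions stayed between 34% and 36.2% across the 300 bp on either side, with no such peak. Strong one-direction promoters had a like peak, with 41.3% in the bin just left of the summit and 34.9% in the bin centred 112.5 bp to the left.

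The homeodomain core TAATTA was within 50 bp of the summit in 22 members, or 5.68% (3.60 to 8.48%). The share was 6.10% at one-direction promoters, 8.20% at weaker divergent regions and 6.11% at the midpoints of pairs without a strong region. These sets differ in GC content, and TAATTA holds only A and T. Below 35% GC it was in 11.2% of members (5.93 to 18.8%), 10.6% of one-direction promoters, 11.9% of weaker divergent regions and 8.78% of the pair midpoints. At 35 to 45% GC the shares were 7.35% (3.58 to 13.1%), 6.79%, 3.76% and 2.99%. At 45% or more it was in 0 of 144 members, which allows a share of up to 2.53%, and in 1.35%, 0.855% and 1.68% of the other sets. Of the members in the optimal list 7 held it: snr-1/snx-13, mog-5/fbxl-3, spat-1/F57C2.5, pola-1/Y47D3A.1, gfm-1/rict-1, F44E7.9/nhr-142 and gphr-1/gex-4. In the window of snr-1/snx-13 printed above, TAATTA occupies the left edge. CTGCGTCT was in 7 members (1.81%) and in 4.31% of one-direction promoters. TGATAA, the core bound by intestinal GATA factors, was in 3.88% of members and 5.74% of one-direction promoters. It was in 9.67% of weaker divergent regions and 10.3% of the pair midpoints. It too holds mostly A and T, and its shares were not compared within classes of GC content.

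GCGCAC was within 50 bp of the summit in 66 members, or 17.1% (13.4 to 21.2%), against 9.09% of one-direction promoters (7.23 to 11.2%), 4.01% of strong regions away from promoters, 3.55% of weaker divergent regions and 2.57% of the pair midpoints. In the optimal list the shares were 25.3% of members (18.7 to 33.0%) and 17.7% of one-direction promoters (12.4 to 24.0%), whose intervals overlap. GC content moved with the motif, which is itself rich in G and C. At 45% GC or more, it was in 27.8% of members, 17.5% of one-direction promoters and 9.40% of weaker divergent regions. At 35 to 45% GC the shares were 16.2%, 6.79% and 6.57%. Of 74 copies, 46 lay on the strand of the nearer gene and 28 on the other, and 8 members held 2 or more. Members with GCGCAC had a median pooled signal of 82.4 and the others 61.1, and their median GC contents were 47.5% and 39.6%. The members were chosen on that signal and the motif was known from earlier results, so these medians are a description without a test.

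The spaced pattern GGCNNNNTTGC was in 36 members, or 9.30% (6.60 to 12.6%). It was in 3.11% of one-direction promoters (2.04 to 4.52%), 1.52% of strong regions away from promoters, 0.979% of weaker divergent regions and 0.733% of the pair midpoints. It was chosen from sequences of strong members, so its share among them is a description only. In the optimal list it was in 19.5% of members (13.5 to 26.6%) and 9.94% of one-direction promoters (6.0 to 15.3%). At 45% GC or more it was in 16.0% of members, 6.06% of one-direction promoters and 0.855% of weaker divergent regions. Of its 38 copies 30 lay within 25 bp of the summit, with a median of 14 bp, and 18 were on the strand of the nearer gene and 20 on the other. With 3 or 5 bases in the gap in place of 4, the letters were in 1.81% of members each. The gap of 4 was chosen from the same sequences, so the lower shares are no test of the spacing.

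The second spaced pattern, GCGNNNTTGC, was in 62 members (16.0%, 12.5 to 20.1%), 7.78% of one-direction promoters and 2.94% of weaker divergent regions. With 2 or 4 bases in its gap it was in 4.65% and 6.72% of members, and with 6 bases in 10.9%. It occurred together with GCGCAC in 22 members and with GGCNNNNTTGC in 25. At least 1 of the 3 was in 114 members (29.5%). These patterns were chosen after sequences of the strongest members had been seen, by eye and from a scan of all 3-base and 4-base blocks with 0 to 8 bases between them, so their shares and their link with signal describe the regions they were chosen from and have no test.

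**Figure D5:**
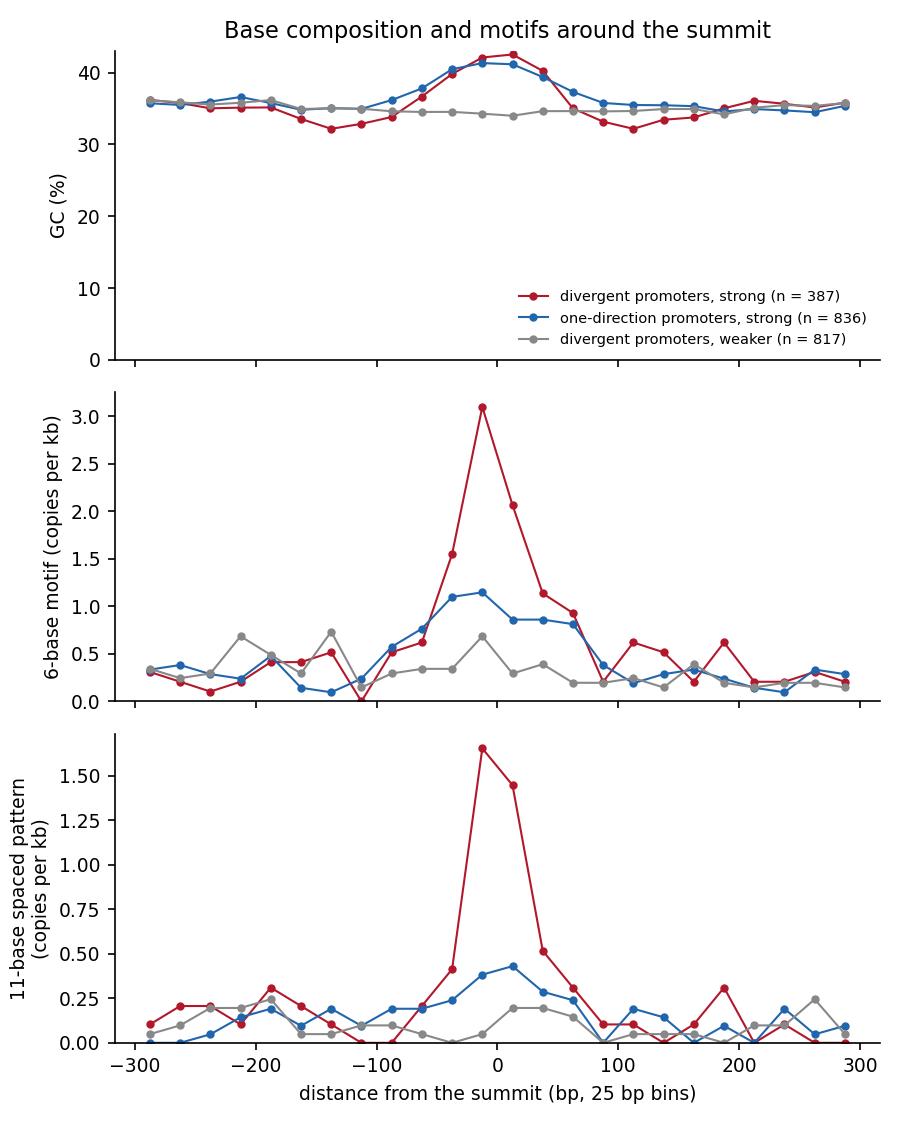
GC content (top, %), copies per kb of the 6-base motif GCGCAC (middle) and of the 11-base spaced pattern GGCNNNNTTGC (bottom) in 25 bp bins around the summit (x axis, bp) for strong divergent, strong one-direction and weaker divergent regions. At members the 6-base motif reaches 3.10 and the spaced pattern 1.65 copies per kb in the bin just left of the summit.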

How the data were processed

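Peak lists of 2 biological replicates of TTX-3-GFP ChIP-seq were used. The authors deposited a list of 30000 regions for each replicate and for both pooled, and an optimal list of 700. The pooled list is labelled as peaks and background, the input for IDR. Per the deposited file descriptions, each replicate list came from the reads of that replicate and a control that the replicates share, the pooled list from both replicates, and the optimal list from these. Not given in the sources used here are the aligner, the caller, their versions and the IDR cutoff, and the control was not analysed here. The lists give the signal, the strength the authors' caller assigned over the control, with no stated scale between lists, and the authors' −log10 q-value, which was 1.40 to 1.51 in the optimal list. They hold no read counts, so depth is unknown.

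Regions of the ce11 lists were placed on Ensembl 115 gene models of WBcel235, the same assembly. No region ran past a chromosome end. Of the gene models without a symbol, 2756 took the RefSeq symbol at the same coordinates and 55 kept an identifier. The 3000 strongest pooled regions were taken first and filtered afterwards. The 5′ end was that of the gene record. Members, gene lists and GCGCAC were chosen with earlier results of these data known, and the spaced patterns, the midpoint background and the chemoreceptor count without other genes were added after the data were seen. The names given are those of genes at the 20 strongest members, the 3 genes with the strongest member in each list, the members of most extreme replicate ratio, the members at the threshold and those of the optimal list with TAATTA. Names of other partners were chosen after their values were seen. A chemoreceptor gene that this rule names is not reported here. Shares carry exact 95% Clopper-Pearson intervals, and medians carry intervals from order statistics. With 1 group of 2 replicates no test between groups was possible. The classification was tested on simulated regions. Motifs were searched on both strands: 13 listed ones and 2 spaced patterns. Python 3.11.15, numpy 2.4.6, pandas 2.3.3, scipy 1.17.1 and matplotlib 3.10.9 were used.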

Additional observations from a re-analysis of the deposited data

How the results depend on the processing

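Of 62 recomputed values, 47 moved by less than their interval or 1.5 times. The median replicate ratio, which alone has a direction, stayed above 0 under its 8 alternatives. With the 1000 strongest regions there were 205 members, 91.2% had a summit in both replicate lists, the median GC content was 44.6%, GCGCAC was in 23.4%, and 6.99% of gene pairs had a member. That last share was 14.4% with a window from 500 bp upstream and 11.3% with a window that ended at the 5′ end, and leaving out 1 replicate gave 11.1% to 12.6%. The share in both replicate lists was 57.9% with summits within 50 bp and 93.0% within 200 bp. With 25 bp to each side of the summit TAATTA was in 2.84% and GCGCAC in 10.1% of members, and with 150 bp in 18.9% and 25.6%, where the median GC content was 35.5%. A shorter or longer window holds fewer or more bases, so these shares change by construction. Chosen after seeing the data were all alternatives for the replicate ratio and GCGCAC, and, for the shares of pairs and of summits in both lists, filtering before ranking and small RNA genes within 200 bp. No paired analysis was possible because there is 1 group. Depth is unknown, shares from fewer than about 20 genes have wide intervals, and whole embryos give no cell type.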

Other observations

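Neighbouring members on chromosome II differed between the replicates in opposite directions. The region of C26D10.3 and ran-3 (ce11, chrII:8325125-8325574) had 86.4 in replicate 1 and 28.1 in replicate 2, and that of C26D10.4 and hel-1 (chrII:8328859-8329308) had 12.7 and 48.5. The difference between these regions was not tested, and they were picked for their ratios.

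A few elements had lower shares at members than at one-direction promoters, with overlapping intervals and no test of the difference. TTTCCCGC, the core bound by E2F proteins, was in 1 of 387 members (0.258%) and 14 of 836 one-direction promoters (1.67%). GAGAGAGA was in 3 members (0.775%) and 17 one-direction promoters (2.03%), and CTGCGTCT in 7 (1.81%) and 36 (4.31%). Within the optimal list CTGCGTCT was in 2.60% of members and 2.76% of one-direction promoters. There TTTCCCGC was in 0.649% and 1.10%, and GAGAGAGA in 1.30% and 2.76%. E-boxes with the letters CACGTG were at like levels, in 2.07% of members and 2.03% of one-direction promoters.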
